A study of Mus musculus with 6 samples.

Results

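Pax1, Pax9, Nkx3-2, Meox1, Meox2, Uncx, Foxc1, Foxc2 and Tcf15 encode transcription factors of the somites and the sclerotome, and their transcripts were followed here in sorted lateral plate mesenchyme cells (LPMs) of the thoracic wall. The 9 genes are rows of a table of 49585 genes and were taken by name. They were picked after Pax1 had been seen to be counted mostly in the knockout libraries, so their differences between genotypes are given as a description, with no test. RNA of C57BL/6 embryos (C57BL/6NCrSlc in the study's methods) at E10.5 was sequenced, with 3 samples of Prx1-Cre Ebf3-KO and 3 of heterozygous LPMs. The KO samples were Prx1-Cre Ebf3 flox/flox and the heterozygous samples, which served as controls, were Prx1-Cre Ebf3 flox/+, so that Cre and at least 1 floxed allele were present in every sample and no wild-type sample was compared. Prx1-Cre is a transgene driven by a Prrx1 enhancer that is active in limb and body wall mesenchyme of lateral plate origin. Cells were sorted by fluorescence for Tdtomato, which Cre switches on from the R26R locus, after limb buds, heart and inner organs had been removed. Whether a sample was a single embryo or a pool is not given in the sources used here. It is therefore not known whether the 3 samples of a genotype stand for 3 independent embryos. The spread between samples of a genotype may be partly technical.

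Somites are blocks of paraxial mesoderm beside the neural tube. Their ventral part becomes the sclerotome, the source of vertebrae and ribs, in response to Sonic hedgehog from the notochord and floor plate, and their dorsal part becomes the dermomyotome, the source of trunk muscle and dermis. The sternum, in contrast, comes from lateral plate mesoderm. Pax1 and Pax9 are paired-box factors that act together in the sclerotome, and Nkx3-2 is a homeobox gene they switch on there. Meox1 and Meox2 are homeobox genes of the whole somite, Foxc1 and Foxc2 are forkhead genes of paraxial mesoderm that also act in blood vessels, Tcf15 (paraxis) is a helix-loop-helix factor that keeps the somite epithelial, and Uncx marks the posterior part of each sclerotome segment.

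Promoter sequences, from 250 bases before to 50 bases after a RefSeq gene start on GRCm38.p6, were found for 6 of the 9 genes, namely Pax1, Pax9, Nkx3-2, Meox2, Uncx and Foxc1. No such entry was matched for Meox1, Foxc2 and Tcf15. Those of Pax1 (chr2:147364744-147365043, plus strand), Nkx3-2 (chr5:41764171-41764470, minus strand) and Meox2 (chr12:37108290-37108589, plus strand) are shown because the first pair of genes had most of their counts in KO libraries and the last had most in heterozygous libraries. Capitals mark a GC box (GGGCGG) or a TATA box (TATAAA) on either strand.
Pax1: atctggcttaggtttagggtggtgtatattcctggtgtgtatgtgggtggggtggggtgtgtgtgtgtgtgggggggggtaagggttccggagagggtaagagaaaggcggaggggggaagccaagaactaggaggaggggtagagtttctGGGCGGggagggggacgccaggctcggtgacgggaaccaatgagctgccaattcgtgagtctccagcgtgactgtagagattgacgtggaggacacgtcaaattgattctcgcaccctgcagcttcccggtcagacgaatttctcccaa
Nkx3-2: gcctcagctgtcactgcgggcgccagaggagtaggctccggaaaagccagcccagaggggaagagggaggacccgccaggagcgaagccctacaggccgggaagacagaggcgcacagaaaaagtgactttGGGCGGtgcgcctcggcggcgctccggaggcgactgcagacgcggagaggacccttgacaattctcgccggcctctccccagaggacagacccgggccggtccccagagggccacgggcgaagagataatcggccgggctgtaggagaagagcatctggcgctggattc
Meox2: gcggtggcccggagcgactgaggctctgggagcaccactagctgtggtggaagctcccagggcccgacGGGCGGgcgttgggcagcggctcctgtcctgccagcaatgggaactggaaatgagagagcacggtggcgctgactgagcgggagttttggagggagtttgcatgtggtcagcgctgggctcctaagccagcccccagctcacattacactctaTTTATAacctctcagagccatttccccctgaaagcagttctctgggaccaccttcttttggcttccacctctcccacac
The GC box was in 4 of the 6 promoters (Foxc1, Meox2, Nkx3-2 and Pax1) and in 35.7% of the 32841 promoters of the same length. The TATA box was in 1 of the 6, that of Meox2, and in 13.6% of all promoters. The Ebf motif, TCCC followed after 2 bases of any kind by GGGA, was in none of the 6 and in 0.904% of all promoters, and the Gli motif GACCACCCA was in none of the 6 and in 0.253% of all. All motifs were searched for on both strands, and none of these matches was tested as a binding site. For Pax1, Pax9, Uncx and Nkx3-2 the window lies inside the span of the counted gene, downstream of that span's start. The sequence upstream of that start was not searched for them. Pax1 had a GC content of 57.3% in this window, Nkx3-2 66.7%, Meox2 60.7%, Foxc1 67.3%, Uncx 60.7% and Pax9 47.0%, against a median of 52.7% over all promoters, so that 5 of the 6 were above that median.

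The library totals over all genes lay between 2088091 and 3525565 counts. Levels are in CPM (counts per TMM-scaled library total) or, where named, in RPKM, the authors' reads per length of exon and per mapped reads, and a count of 0 in a library allows a level of up to 0.823 to 1.48 CPM (3 counts), depending on the library. Ebf3, the deleted gene, had 308, 238 and 248 counts in heterozygous LPMs and 179, 87 and 220 counts in KO LPMs, or 99.1 ± 5.54 and 58.9 ± 15.4 CPM (SD, n = 3). The quasi-likelihood test of edgeR gave it a log2 fold change of -0.74 with an SE of 0.18 (unadjusted p = 0.00161, adjusted p = 1.00 by Benjamini-Hochberg). The counts cover the whole gene and not only the floxed exons, which encode the DNA-binding domain. Over the 10891 genes that reached 10 counts in 3 or more libraries, this test called 0% of genes at an adjusted p under 0.05, as did DESeq2, and 2.15% (234 genes) had an unadjusted p up to 0.05. Among the 19 lateral plate markers examined, 18 passed the count minimum, and Prrx1 stood at 313 CPM in heterozygous LPMs.

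Most of the 9 factors were rare in these cells by deposited counts. The summed level of all 9, with Foxc2 by its counts, was 31.5, 24.7 and 41.1 CPM in heterozygous replicates 1, 2 and 3. It was 42.3, 40.4 and 70.8 CPM in KO replicates 1, 2 and 3, while the lateral plate markers summed to between 1424 and 1853 CPM. In heterozygous LPMs Foxc1 (16.9 CPM) and Meox1 (10.6 CPM) were above a few of these markers, such as Isl1 (8.76 CPM) and Osr1 (8.33 CPM), though most markers were higher. KO replicate 3 had the highest sum, and heterozygous replicate 3 lay within the range of the other KO replicates. Only Meox1 and Foxc1 passed the count minimum, Pax9 and Foxc2 had 3 or fewer counts in all, and Uncx had none. In bulk samples such as these, fewer cells that make a transcript and less of it per cell cannot be told apart.

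By mean CPM, 6 of the 9 factors were higher in KO (Pax1, Pax9, Nkx3-2, Meox1, Foxc1 and Tcf15), 2 were lower (Meox2, and Foxc2 by its counts) and Uncx was at 0. The number higher in KO was 5 to 7 under the alternatives tried, including each library left out in turn. Over all genes tested, the share with a log2 fold change above 0 was 50.2%. Pax9 had 3 counts in all and Foxc2 had 2, so their directions in this tally carry little weight. By RPKM, Foxc2 was higher in KO (ratio 2.19). The genotypes did not overlap in CPM for 2 factors that were higher in KO, Pax1 and Tcf15, and for 1 that was lower, Meox2. Among all genes tested, 3.95% were higher and 3.51% lower in KO without overlap, and among the 1399 genes with 20 to 50 counts in all, the range in which these 3 factors lie, the shares were 4% and 4.36%. Since the group was chosen on this contrast, nothing is read from the comparison of these shares.

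**Figure D1:**
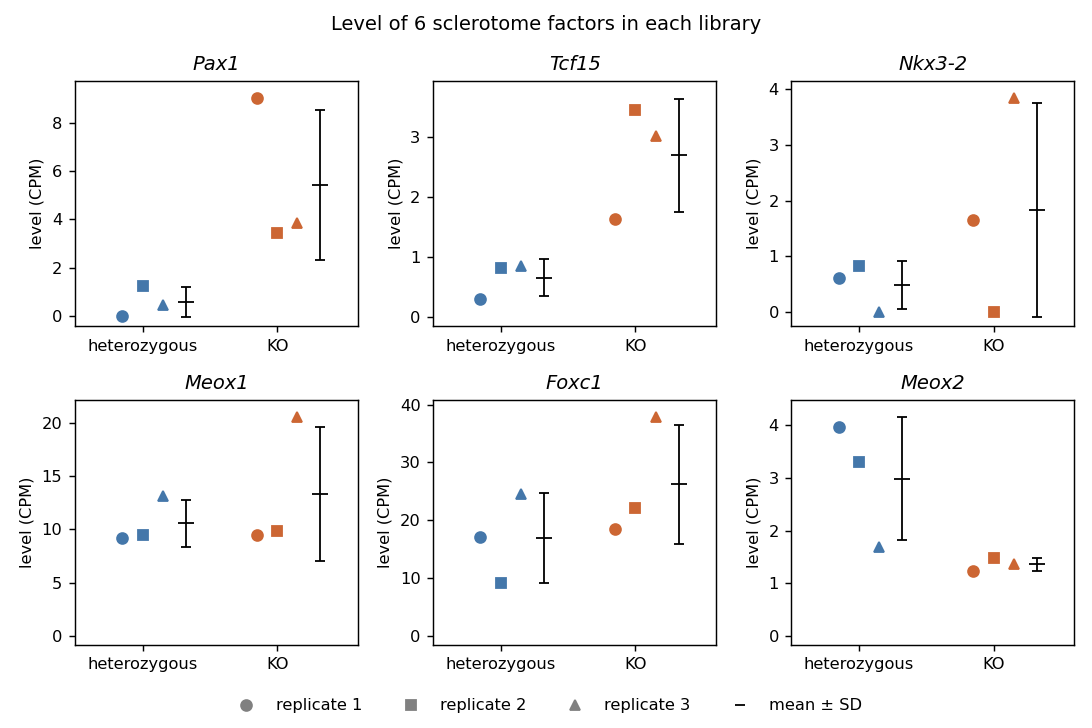
Level of Pax1, Tcf15, Nkx3-2, Meox1, Foxc1 and Meox2 in CPM (vertical axis, 1 scale per panel) in each heterozygous (blue) and KO (orange) library, with symbols for the replicate number and the mean ± SD of 3 libraries beside them. Pax1 and Tcf15 are higher in every KO library than in any heterozygous library, Meox2 is lower in every KO library, and the highest Meox1, Foxc1 and Nkx3-2 values are those of KO replicate 3.

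Pax1 (ENSMUSG00000037034, chromosome 2, 147361925 to 147393295, plus strand), needed for the ventral vertebrae and also known from the pharyngeal pouches, had 0, 3 and 1 counts in heterozygous LPMs and 22, 7 and 14 counts in KO LPMs. All 3 KO libraries were above all 3 heterozygous ones. These are 0, 1.24 and 0.424 CPM against 9.04, 3.45 and 3.84 CPM, and the KO libraries held 91.5% of its 47 counts. The mean was 0.553 ± 0.629 CPM (SD, n = 3) in heterozygous and 5.45 ± 3.12 CPM (SD, n = 3) in KO LPMs, a ratio of 9.84. From the summed counts scaled to library size the ratio was 10.7, with a 95% exact interval of 3.88 to 41.0 that covers counting error only. Since the group was picked on this contrast, the interval is a description and not a test. The size of the ratio was set largely by 4 heterozygous counts, since it was 25.7 without heterozygous replicate 2, which holds 3 of them, and 6.56 without heterozygous replicate 1. Without KO replicate 1, the highest library, it was 6.59.

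Pax9 (ENSMUSG00000001497, chromosome 12, 56691767 to 56712822, plus strand), the paralogue of Pax1, was close to absent at this depth. It had 1, 0 and 0 counts in heterozygous LPMs and 2, 0 and 0 counts in KO LPMs, and no ratio is given. Pax3 of the dermomyotome had 7, 6 and 5 counts in heterozygous LPMs and 5, 3 and 15 in KO LPMs, Pax7 had 1 count in all, Pax4 had none, and Pax8 had 6 counts, all in KO replicate 1. None of the 7 other Pax genes passed the count minimum.

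Nkx3-2 (ENSMUSG00000049691, chromosome 5, 41761483 to 41764501, minus strand), also called Bapx1, had 2, 2 and 0 counts in heterozygous LPMs and 4, 0 and 14 counts in KO LPMs. KO replicate 2 was at 0, which allows a level of up to 1.48 CPM, and the genotypes overlapped. The levels were 0.611, 0.825 and 0 CPM against 1.64, 0 and 3.84 CPM, with means of 0.479 ± 0.428 and 1.83 ± 1.93 CPM (SD, n = 3) and a ratio of 3.82. KO replicate 3 held 14 of its 18 KO counts, and the ratio was 1.72 without that library, 5.98 without heterozygous replicate 2 and 2.55 without heterozygous replicate 3. Uncx (ENSMUSG00000029546, chromosome 5, 139543494 to 139548179, plus strand) had 0 counts and an RPKM of 0 in all 6 libraries, so that a level above 0.823 to 1.48 CPM was not seen in any of them.

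Tcf15 (ENSMUSG00000068079, chromosome 2, 152143561 to 152149097, plus strand) had 1, 2 and 2 counts in heterozygous LPMs and 4, 7 and 11 counts in KO LPMs. The levels were 0.306, 0.825 and 0.847 CPM against 1.64, 3.45 and 3.02 CPM, and as for Pax1 the lowest KO library was above the highest heterozygous one. The means were 0.659 ± 0.306 and 2.70 ± 0.944 CPM (SD, n = 3). Their ratio was 4.10 and stayed between 3.24 and 4.91 with any 1 library left out. The ratio of the summed counts was 4.37, with a 95% exact counting interval of 1.62 to 14.8. Pax1 was highest in KO replicate 1 and Tcf15 lowest there among the KO libraries, so that the order within the KO group was not shared.

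Meox1 (ENSMUSG00000001493, chromosome 11, 101877510 to 101894374, minus strand) was, with Foxc1, the most abundant of the 9 factors by deposited counts. It had 30, 23 and 31 counts in heterozygous LPMs and 23, 20 and 75 counts in KO LPMs, or 9.17, 9.48 and 13.1 CPM against 9.45, 9.86 and 20.6 CPM. KO replicates 1 and 2 lay within the heterozygous range and only KO replicate 3 was above it. The means were 10.6 ± 2.20 and 13.3 ± 6.31 CPM (SD, n = 3), and the log2 fold change from edgeR was 0.38 (SE 0.35). It was -0.12 without KO replicate 3, so that its direction rested on that library.

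Meox2 (ENSMUSG00000036144, chromosome 12, 37108540 to 37179534, plus strand), which is also known from limb muscle precursors, went the other way. It had 13, 8 and 4 counts in heterozygous LPMs and 3, 3 and 5 counts in KO LPMs, or 3.97, 3.30 and 1.69 CPM against 1.23, 1.48 and 1.37 CPM. The groups did not overlap in CPM, but heterozygous replicate 3 was close to the KO libraries. On the RPKM scale heterozygous replicate 3, at 0.157, was below KO replicate 3, at 0.201, and the groups overlapped. The means were 2.99 ± 1.17 and 1.36 ± 0.124 CPM (SD, n = 3), a ratio of 0.456 that lay between 0.375 and 0.545 with any 1 library left out. The ratio of the summed counts was 0.437, with a 95% exact counting interval of 0.194 to 0.922. The 2 Meox genes thus differed in direction and in level, Meox1 at several times the level of Meox2 per length of transcript in either genotype (mean RPKM 1.15 against 0.320 in heterozygous and 1.63 against 0.141 in KO LPMs).

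Foxc1 (ENSMUSG00000050295, chromosome 13, 31806691 to 31810643, plus strand) had 56, 22 and 58 counts in heterozygous LPMs and 45, 45 and 138 counts in KO LPMs. The levels were 17.1, 9.07 and 24.6 CPM against 18.5, 22.2 and 37.9 CPM, and the groups overlapped. KO replicate 3 was highest, heterozygous replicate 2 was lowest and heterozygous replicate 3 was above the other 2 KO libraries. The means were 16.9 ± 7.75 and 26.2 ± 10.3 CPM (SD, n = 3) and the log2 fold change from edgeR was 0.66 (SE 0.36), against 0.27 without KO replicate 3 and 0.37 without heterozygous replicate 2.

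Foxc2 (ENSMUSG00000046714, chromosome 8, 121116171 to 121118895, plus strand) depended on which deposited column was read. Its counts were 0, 0 and 1 in heterozygous LPMs and 0, 0 and 1 in KO LPMs, which would place it near Uncx. Its RPKM values, however, were 0.635, 0.851 and 0.441 in heterozygous LPMs and 1.09, 0.558 and 2.58 in KO LPMs. Multiplied by the gene length of 2725 bases and by the reads behind the RPKM values of each library, they came to 20, 24 and 13 reads in heterozygous LPMs and 33, 18 and 74 reads in KO LPMs, each a whole number within 0.05. For 7 of the other factors, among them Uncx at 0, the same calculation with the annotated exon length returned the deposited counts in every library. Foxc1, whose coordinates differ from the annotation, did so with 3953 bases, the length that its count and RPKM gave in KO replicate 3. By these reads Foxc2 stood at 7.17 ± 2.38 CPM in heterozygous and 14.2 ± 5.74 CPM in KO LPMs (SD, n = 3), with KO replicate 2 inside the heterozygous range. The ratio was 1.99 on this scale (1.56 to 2.45 with any 1 library left out) and 2.19 by RPKM, or 1.28 by RPKM without KO replicate 3. With these reads in place of its counts, the 9 factors summed to 37.6, 34.6 and 46.2 CPM in heterozygous LPMs. In KO LPMs they then summed to 55.9, 49.3 and 90.8 CPM. These sums mix counts with reads behind RPKM, and the genotypes did not overlap in them. Since the group was chosen on this contrast, nothing is read from that. The reading by RPKM was added after the disagreement had been seen.

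**Figure D2:**
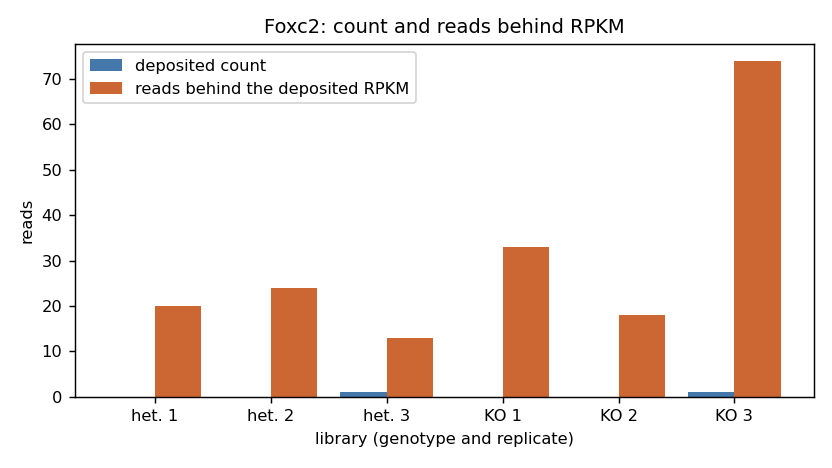
Reads (vertical axis) for Foxc2 in each library, as the deposited count (blue) and as the whole number of reads behind the deposited RPKM (orange). The count is 0 or 1 in every library, while the reads behind RPKM lie between 13 and 74.

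Foxc2 was not alone in this. Between 2401 and 3003 genes per library were listed with 0 counts and an RPKM above 0, and none the other way round. Foxc2 has a single exon and lies in an intron of Gm20388, a gene on the same strand that spans 119910841 to 124345722 on chromosome 8 and has no exon over Foxc2. Of the 213 genes that lie within another gene of the same strand and had an RPKM above 0 in all 6 libraries, 31.9% had 2 or fewer counts in all, compared with 6.63% of the 13055 other genes. How the 2 columns came to differ was not tested. In the other lists examined here, no gene with 2 or fewer counts had an RPKM above 0 in every library. Chad and Sox2 had 0 counts with an RPKM above 0 in at least 1 library. Genes of these lists with more counts were not checked, and they may be counted in part. Scx, for instance, had 4 to 13 counts per library at a mean RPKM of 2.04. Meox1 had 202 counts in all at a mean RPKM of 1.39, and the lengths of the 2 genes were not compared.

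Per length of transcript (RPKM), the order in heterozygous LPMs was Meox1 (1.15 ± 0.145), Foxc1 (1.04 ± 0.440), Foxc2 (0.642 ± 0.205), Meox2 (0.320 ± 0.160), Tcf15 (0.158 ± 0.0606), Nkx3-2 (0.0710 ± 0.0618), Pax1 (0.0284 ± 0.0330), Pax9 (0.00570 ± 0.00987) and Uncx at 0 (SD, n = 3). Each of the neighbours from Meox1 to Foxc1, Foxc1 to Foxc2, Nkx3-2 to Pax1 and Pax1 to Pax9 differed by less than the larger of their SDs. In KO LPMs the order was Foxc1 (1.77 ± 1.34), Meox1 (1.63 ± 1.36), Foxc2 (1.41 ± 1.05), Tcf15 (0.679 ± 0.355), Nkx3-2 (0.328 ± 0.400), Pax1 (0.290 ± 0.155), Meox2 (0.141 ± 0.0522) and Pax9 (0.0119 ± 0.0206), with Uncx at 0. There, each pair of neighbours from Foxc1 down to Meox2 differed by less than the larger of their SDs. Pax1 was below Meox2 by more than that spread in heterozygous LPMs, and above it by less than the spread in KO LPMs. The gene counts were 17.6% to 33.5% of the reads behind the RPKM values, highest in KO replicate 3 and lowest in KO replicate 2, so that RPKM and CPM scale the libraries differently.

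**Figure D3:**
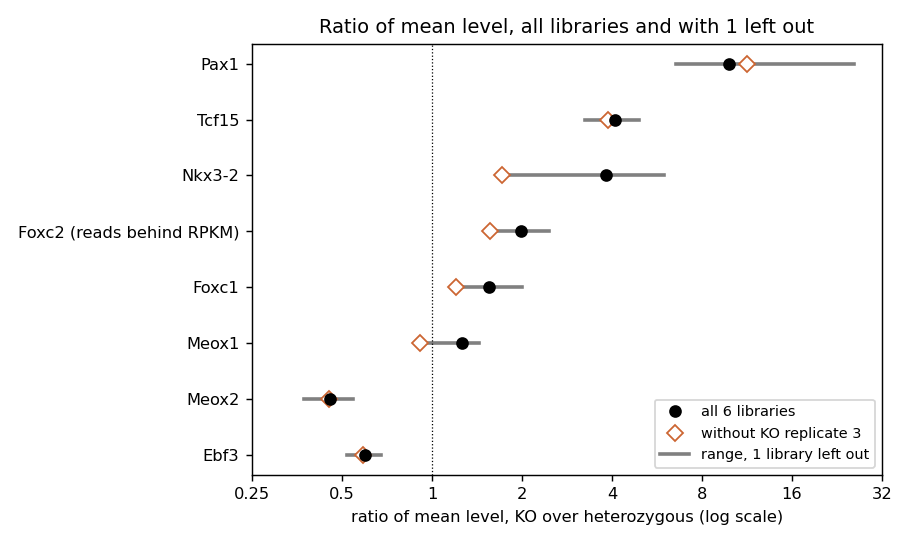
Ratio of the mean level in KO over heterozygous LPMs (horizontal axis, log scale) for 7 of the factors and Ebf3, from all 6 libraries (black points), without KO replicate 3 (open diamonds) and over each library left out in turn (grey lines). Levels are CPM, and for Foxc2 the reads behind its RPKM scaled in the same way. Pax1, Tcf15, Nkx3-2, Foxc1 and Foxc2 stay above 1 and Meox2 and Ebf3 below 1 throughout, while Meox1 is below 1 without KO replicate 3.

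The libraries differed beyond these factors. KO replicate 3 had the highest level of 3 of the 9 factors by counts, and of Foxc2 by RPKM. It also had 25.5 CPM of blood genes, against 1.83 to 6.58 CPM in the other 5 libraries, with 27 counts of Hba-x and 32 of Hbb-y, both embryonic globins. None of the 9 blood genes passed the count minimum. The endothelial markers summed to 149, 72.1 and 242 CPM in heterozygous replicates 1 to 3 and to 173, 97.7 and 288 CPM in KO replicates 1 to 3. Replicate 3 was thus highest and replicate 2 lowest in both genotypes. Foxc1 and Meox1 were likewise highest in replicate 3 of both. In KO LPMs, however, Foxc1 and Meox1 were lowest in replicate 1, and Meox1 was also lowest in heterozygous replicate 1. Foxc2, by the reads behind its RPKM, was highest in KO replicate 3 (20.3 CPM) but lowest in heterozygous replicate 3 (5.51 CPM). The part of endothelial or blood cells in the values of Foxc1, Foxc2 and Meox1 was not tested. The 7 endothelial genes tested, among them Flt1, Pecam1, Kdr and Cdh5, gave 0 at an unadjusted p up to 0.05 in either direction, with a median log2 fold change of 0.31 against 0.00 over all genes tested.

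**Figure D4:**
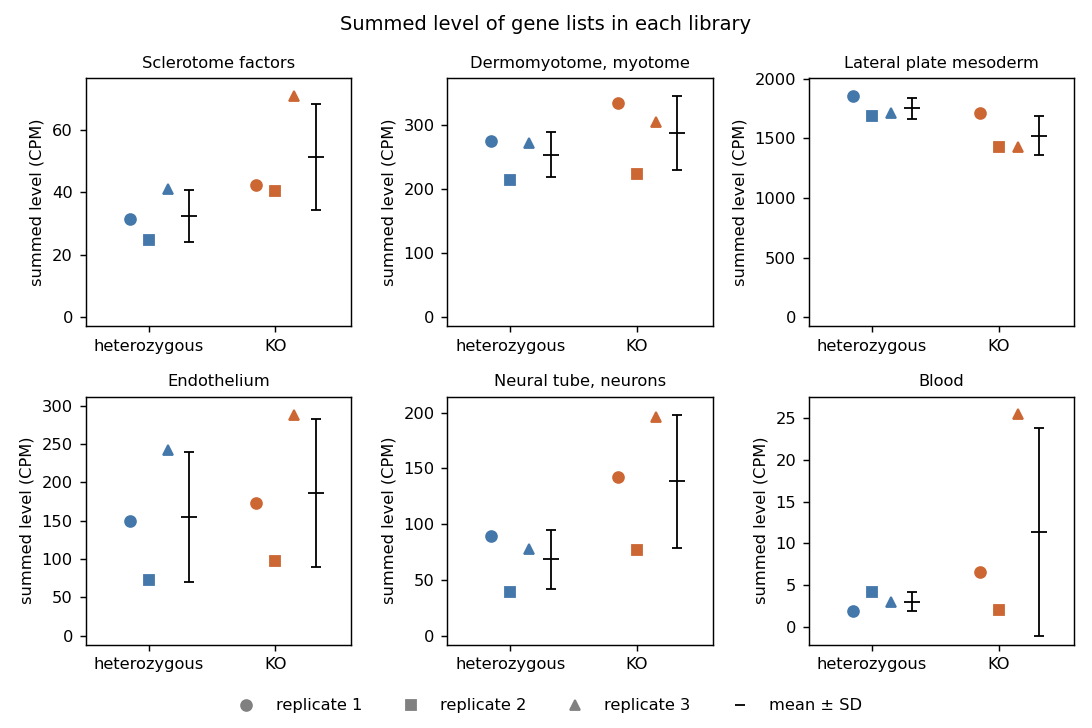
Summed level in CPM (vertical axis, 1 scale per panel) of the 9 sclerotome factors and of 5 marker lists in each heterozygous (blue) and KO (orange) library, with symbols for the replicate number and the mean ± SD of 3 libraries. The endothelial sum is highest in replicate 3 and lowest in replicate 2 of both genotypes, and the blood sum is high in KO replicate 3 alone, at 25.5 CPM.

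The other genes of the somite were examined as lists, also chosen with earlier results of these data known. In the comparison over all genes 1.38% were higher and 0.771% lower in KO at an unadjusted p up to 0.05, and no gene of any list had an adjusted p under 0.05 in edgeR. Of the 19 dermomyotome and myotome genes 7 were tested and 0 had an unadjusted p at or below 0.05 in either direction (median log2 fold change 0.25, with Met 0.54, Des 0.25 and En1 0.87). Of these 7, 5 were above 0 and 2 below, Eya1 (-0.28) and Six4 (-0.16). Untested factors of this list differed in counts, with 2 counts of Myod1, 1 of Pax7 and none of Myf6 in all libraries. Lbx1 had 3, 1 and 8 counts in heterozygous and 3, 6 and 11 in KO LPMs. Eya2 had 9, 1 and 3 against 6, 5 and 15, and Myf5 had 5, 0 and 1 against 3, 1 and 4. The genotypes overlapped in CPM for each of these. The list summed to 213 to 275 CPM in heterozygous and 223 to 335 CPM in KO LPMs. Of the 16 genes of presomitic mesoderm and segmentation, 3 were tested. Aldh1a2, which makes retinoic acid, stood at 0.46 on the log2 scale (SE 0.20, unadjusted p = 0.0377 in edgeR), Tbx18 at -0.42 and Epha4 at 0.07, while Msgn1, Ripply1, Ripply2 and Cer1 were at 0 in every library.

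Cartilage genes that follow the sclerotome factors in the vertebrae were well counted in part. Of the 18 that were found, 8 were tested, 1 was lower in KO at an unadjusted p up to 0.05 and none was higher, with a median log2 fold change of -0.05. The lower one was Sox5, a partner of Sox9 (log2 fold change -0.41, SE 0.17, unadjusted p = 0.0344 in edgeR), and Col11a1 had -0.38, Col9a1 -0.34 and Col2a1, the main cartilage collagen, 0.20. Chad was at 0 counts in every library. Of the 8 syndetome genes, those of the rib and vertebral tendons, 4 were tested with 0 at such a p (median -0.02, Tnc -0.22, Etv5 0.37, Etv4 -0.04 and Fgfr1 0.01 on the log2 scale), and Tnmd was at 0. The tendon factors Scx and Mkx did not pass the count minimum, so this result does not cover them. Scx had 8, 11 and 5 counts in heterozygous and 4, 4 and 13 in KO LPMs, and Mkx 12, 6 and 9 against 3, 3 and 12. As said above, Scx may be counted only in part.

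Of the 18 genes of the hedgehog pathway, which induces Pax1 in the somite, 13 were tested and 0 had an unadjusted p up to 0.05 in either direction (median log2 fold change -0.04). Those of smallest p were the transducer Smo (-0.23), the factor Gli3 (-0.25), the acyltransferase Hhat (0.41) and the ciliary kinesin Kif7 (-0.22). The ligand Shh had 1, 7 and 0 counts in heterozygous LPMs and 0, 2 and 3 in KO LPMs. Of the 8 BMP antagonists 3 were tested, with 0 at such a p and a median of 0.05, namely Bmper (0.30), Fstl1 (0.05) and Grem1 (-0.03), and Nog, which is needed for the sclerotome, had 3, 2 and 2 counts against 2, 8 and 11.

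Among the lateral plate genes tested, 3 of 18 were higher in KO at an unadjusted p up to 0.05 (Isl1 1.04, Osr1 1.30 and Foxf1 0.96 on the log2 scale) and 2 were lower (Ebf3 and Hand2, -0.42), with a median of -0.20. Ebf3 is the gene deleted by design, so its place among the lower genes is no separate result, and the median includes it. Of the nephric and intermediate mesoderm genes, 2 of 6 tested were higher and none lower (median 0.44), Emx2 (0.72) and Osr1, which is in both lists, while Six2 had 0.71 and Sall1 -0.35. Of the neural genes, 2 of 4 tested were higher and none lower (Nefl 1.77 and Nefm 1.29, median 0.82), Dcx had 0.34 and Elavl4 0.26, and Sox1, Sox2 and Olig2 had no counts. The neural list summed to 88.9, 38.8 and 78.0 CPM in heterozygous replicates 1 to 3 and 143, 76.4 and 196 CPM in KO replicates 1 to 3, with KO replicate 2 inside the heterozygous range. Pax1 and Pax9 are also made in pharyngeal endoderm, and of the gut and pharyngeal epithelium genes 7 were tested and 0 had such a p (median 0.05, Krt8 -0.26, Krt18 -0.20, Epcam 0.29, Prom1 0.05). Of the neural crest genes 3 were tested with 0 at such a p (median 0.19, Ets1 0.19, Erbb3 0.65). The part of any of these other cells in the values of Pax1, Tcf15 and Nkx3-2 was not tested.

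The 5 tested genes whose log2 CPM over the 6 libraries was most like that of Pax1 were Adam22 (Pearson's r 0.984), Smg5 (0.980), Adamts3 (0.976), Arl6ip5 (0.970) and Osbpl3 (0.968). Adam22 lay between 9.78 and 12.8 CPM in heterozygous and between 14.3 and 19.3 CPM in KO LPMs. Smg5 differed less, at 107 to 112 against 116 to 120 CPM. All 5 were higher in every KO library than in any heterozygous one, which follows largely from their choice by likeness to Pax1. For the summed CPM of the 9 factors they included Rftn1 (0.998), Lyplal1 (0.991), Pfkfb4 (0.986) and Lmbr1 (0.980), each highest in KO replicate 3 and lowest in heterozygous replicate 2. These are descriptions over 6 libraries that share the genotype contrast and the depth, with up to 10891 genes searched, and no p is given.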

How the data were processed

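SMARTer libraries of total RNA from sorted LPMs were sequenced on the NextSeq platform, and the authors used CLC with its Ensembl annotation for mapping and counting. Strand setting and CLC version are not given in the sources used here. The study's methods name mm10 and the submitters' processing notes mm9. The file's gene coordinates equalled those of GENCODE M21 (GRCm38) for 91.0% of 47102 shared names. The deposited counts are whole numbers per gene and were used for the main results. The authors also deposited RPKM values, used for levels per length. The reads behind them were taken, per library, as the total that most often linked count, RPKM and M21 exon length (2568 to 2663 of 6101 genes compared). The deposited fold changes and p-values of the authors' own test, and 12 columns of normalized or transformed values, were not used. A list of genes that the authors chose by their own test, and a summary of mapped reads, were not used either.

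Counts were scaled by TMM and tested in edgeR 4.0.16 (R 4.3.3, glmQLFit and glmQLFTest, genotype as the only term) over genes that reached 10 counts in 3 or more libraries. SEs are the log2 fold change divided by the square root of F. By the deposited counts 7 of the 9 factors were untested. Counting intervals are exact binomial at 95%, from counts summed over the libraries of each genotype. They leave out the spread between libraries and are not read as tests. PCR copies are counted as molecules in them, so they may be too narrow even for counting error. The members and lists were chosen with earlier results of these data known. Genes named are the 9 factors, Ebf3, the 5 most like Pax1 and the 5 most like the sum (prior count 2), and in each list up to 4 of smallest p and those at 0, except a few genes under this rule that are not reported here. Pax3, Pax7, Pax8, Myod1, Lbx1, Eya1, Eya2, Six4, Myf5, Scx, Mkx, Shh, Nog, Prrx1, Hba-x and Hbb-y were named outside this rule, after their values were seen. The fit was tested on simulated data. Alternatives were library size alone, upper quartile factors, other count minimums, DESeq2 1.42.0, RPKM with pseudocounts in limma 3.58.1, a replicate block and each library left out. Figures used Python 3.11.15 with matplotlib 3.10.9.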

Additional observations from a re-analysis of the deposited data

How the results depend on the processing

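The unadjusted threshold of 0.05 was passed by 234 genes, and by 571 with no count filter, by 125 with DESeq2, and by 71 and 61 with RPKM and a pseudocount of 1 or 0.1 in limma. At an adjusted p under 0.05 the count was 0, against 38 with no filter, 1 and 5 with RPKM at these pseudocounts, and 0 with DESeq2. With 1 library left out the counts ran from 127 to 749 and from 0 to 1. The lowest was without KO replicate 3 and the highest without KO replicate 1, 367 genes passed the unadjusted threshold without KO replicate 2, and the 1 gene past the adjusted threshold came without heterozygous replicate 2. The cause of these changes was not tested. The log2 ratio of Pax1 was 3.30, and 1.55 or 0.32 on RPKM with a pseudocount of 0.1 or 1 (its RPKM was under 1 in every library). It ran from 2.72 to 4.68 with 1 library left out, highest without heterozygous replicate 2. The sample titles give a replicate number and no pairing, and the main fit took none. The correlation of same-numbered deviations from the genotype means was 0.43, 0.19 and 0.01. In these deviations heterozygous replicates 1 and 2 were most like the KO library of the same number, and heterozygous replicate 3 was most like KO replicate 2. These values do not settle whether the samples were paired. With a replicate block 493 genes had an unadjusted p up to 0.05 and 2 an adjusted p under 0.05. The direction of Pax1, Nkx3-2, Tcf15, Meox2 and Foxc1 held under each setting run for them, and that of Meox1 turned without KO replicate 3 (-0.12 on the log2 scale). At these depths Pax9 and Uncx, with 3 or fewer counts, could not be compared between genotypes.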
